A study of Mus musculus with 18 samples.

Results

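The genes described here encode voltage-gated sodium channels (Scn), voltage-gated calcium channels (Cacn) and hyperpolarization-activated cyclic nucleotide-gated channels (Hcn). They were all genes whose symbol starts with Scn and a number followed by a or b, with Cacna, Cacnb or Cacng, or with Hcn and a number from 1 to 4, which gave 44 of the 37319 genes in the table. RNA-seq was done on ipsilateral cortex of adult male C57BL/6J mice, 8 to 10 weeks old and 24 to 26 g in weight, in 18 libraries. All mice received an adeno-associated virus (AAV) in the left lateral ventricle, in which the synapsin promoter, active in neurons, drove a short hairpin RNA (shRNA). In the control arm this was a scramble shRNA (AAV-SYN-shRNA-Con), and in the Tiparp arm it was directed against Tiparp, a mono-ADP-ribosyltransferase gene. Sham surgery or transient middle cerebral artery occlusion (tMCAO), a temporary block of the artery supplying lateral cortex and striatum, was done 4 weeks later. The 6 groups of 3 libraries were sham with the control virus (Sham_C) or the Tiparp virus (Sham_T), 24 h after tMCAO (R24h_C, R24h_T) and 28 d after tMCAO (R28d_C, R28d_T). The labels do not say whether the 3 libraries of a group came from separate mice, so p-values measure only the spread between libraries, which may be technical.

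Sodium channels open during the rising phase of the action potential, and their pore-forming alpha subunits are joined by beta subunits that tune gating and anchor the channel at the axon initial segment. Calcium channels turn depolarization into calcium entry for transmitter release, dendritic signalling and gene regulation, with a pore-forming subunit carried to the membrane by alpha2-delta and cytosolic beta subunits. Most Cacng genes encode transmembrane AMPA receptor regulatory proteins (TARPs), which carry AMPA-type glutamate receptors to the synapse, although the family was named after a calcium channel subunit of muscle. HCN channels open on hyperpolarization and set the resting potential and dendritic integration of cortical neurons.

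The values are FPKM (fragments per kilobase of gene, scaled to library size), which scale for gene length and allow levels of different genes to be compared, but hold no read totals, so depth and counting error are unknown. Of the 44 channel genes 32 had a mean of at least 1 FPKM over the libraries and 12 a mean below it. Among the most abundant were the TARP gene Cacng7 at a mean of 101 FPKM and the calcium channel beta subunit Cacnb3 at 67.5 FPKM. The pore-forming subunits were lower. Scn8a led the sodium channel alpha genes at 15.8 FPKM, the P/Q-type gene Cacna1a the calcium channel genes at 15.4 FPKM and Hcn2 the HCN genes at 27.2 FPKM. Genes below a mean of 1 FPKM included Scn4a, Scn9a, Scn10a and Scn11a, best known from skeletal muscle and peripheral neurons, the atypical, sodium-sensing Scn7a, and also Cacna1f of the retina, Cacna1s, Cacng1 and Cacng6 of muscle, Cacna2d4, and Hcn4 of the cardiac pacemaker. In the GENCODE annotation 8 of the 44 genes lie on chromosome 2, with Scn1a, Scn2a, Scn3a, Scn7a and Scn9a among them, and 8 on chromosome 9, with Scn10a, Scn11a, Scn2b, Scn3b and Scn4b among them. Scn4a was listed at 0 in 14 of 18 libraries. Neuron markers of the labelled tissue were present. The 8 excitatory markers summed to between 563 and 678 FPKM and the 11 pan-neuronal markers to between 1212 and 1326 FPKM in the sham libraries.

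Some libraries stood apart from their group. R24h_C3 had 1682 FPKM of the choroid plexus gene Ttr, 699 FPKM over the pan-neuronal list and 400.2 FPKM over the striatal list, against 1179.8 and 1345 FPKM (pan-neuronal) and 81.0 and 132 FPKM (striatal) in R24h_C1 and R24h_C2. Ttr was also above 100 FPKM in Sham_T1, Sham_T2 and R28d_T2. R24h_T3, labelled 24 h after tMCAO, had 11.5 FPKM of the injury gene Spp1, where the other 24 h libraries had at least 162 FPKM and sham at most 6.77 FPKM. The median log2 difference of the channel genes from sham of the same arm was -0.20, -0.14 and -0.37 in the R24h_C libraries and 0.02, -0.12 and -0.03 in the R24h_T libraries. Tiparp itself reached 105% of its level in the control arm in sham, 60.2% at 24 h and 99.4% at 28 d (log2 differences 0.06, -0.60 and 0.00), and exact two-sided permutation tests gave p = 0.6, p = 0.2 and p = 1, where 3 libraries against 3 cannot go below 0.1. The arms are therefore named for the virus given, not for a measured knockdown.

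Promoters of 4 channel genes that changed at 24 h are shown first, from RefSeq on build GRCm38.p6, as the 250 bases before the annotated start, 5′ to 3′ on the gene's strand. Capitals mark matches to AP-1 (TGANTCA) or EGR (GCGGGGGCG, either strand), the binding motifs of activity- and stress-induced factors. CRE (TGACGTCA) and a GC box (CCGCCC, either strand, not in capitals) were searched too, and a GC box can overlap an EGR match, as it does in Hcn2 and Cacna1b. Cacng5 (chr11:107915056-107915305, minus strand) rose, Hcn2 (chr10:79716384-79716633, plus strand) and Cacnb1 (chr11:98022628-98022877, minus strand) fell, and Cacna1b (chr2:24763153-24763402, minus strand) fell in the control arm.
Cacng5: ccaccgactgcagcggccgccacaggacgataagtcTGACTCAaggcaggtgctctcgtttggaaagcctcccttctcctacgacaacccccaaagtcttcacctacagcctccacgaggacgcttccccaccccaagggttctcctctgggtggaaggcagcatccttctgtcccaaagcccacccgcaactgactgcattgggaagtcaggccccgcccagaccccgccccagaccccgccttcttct
Hcn2: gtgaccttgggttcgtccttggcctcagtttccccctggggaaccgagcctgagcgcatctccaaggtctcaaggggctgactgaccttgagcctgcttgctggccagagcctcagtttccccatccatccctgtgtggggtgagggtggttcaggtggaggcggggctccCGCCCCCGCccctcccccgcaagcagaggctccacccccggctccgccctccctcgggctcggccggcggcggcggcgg
Cacna1b: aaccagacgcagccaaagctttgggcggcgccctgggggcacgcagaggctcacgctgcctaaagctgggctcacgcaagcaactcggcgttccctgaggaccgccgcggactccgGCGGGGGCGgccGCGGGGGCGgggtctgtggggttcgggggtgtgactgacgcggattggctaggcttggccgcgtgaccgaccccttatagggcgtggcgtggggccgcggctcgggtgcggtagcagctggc
Cacnb1: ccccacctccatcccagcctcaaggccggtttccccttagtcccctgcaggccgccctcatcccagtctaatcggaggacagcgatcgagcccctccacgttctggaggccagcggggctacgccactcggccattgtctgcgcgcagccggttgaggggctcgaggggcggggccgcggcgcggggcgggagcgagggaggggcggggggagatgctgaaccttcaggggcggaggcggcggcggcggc
Cacnb1, whose call at 24 h over both arms held in each of the 18 alternatives tried, is shown as a promoter with no AP-1 or EGR match. The promoters of Cacnb2 and Cacnb3, also called at 24 h, are not shown and held neither motif. Cacna1g, called as well, had no promoter listed. The RefSeq table held 43 promoters of 32 of the 44 genes. The Cacng5 promoter shown held the only AP-1 match among them, which starts at base -214 from that promoter's start, while another Cacng5 promoter held none. Of all 32851 promoters of this length 6.75% held one. No channel gene promoter held the CRE letters (1.55% of all promoters). EGR matches lay in 5 of the 43 channel gene promoters, against 2.57% of all promoters. These belonged to 5 genes, Cacna1b and Cacna2d1 with 2 matches each, and Cacna2d2, Hcn2 and Scn8a with 1 each. Of these 5, Hcn2 fell at 24 h, Cacna1b passed in the control arm's own test, and Cacna2d1, Cacna2d2 and Scn8a did not pass in any comparison. GC boxes lay in 17 of the 43 channel gene promoters, against 32.7% of all promoters. Channel gene promoters had a median GC content of 56.8% and 9 CpG, against 52.4% and 6 over all promoters. A match is a description of the letters and shows no binding.

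Ischemic cortex at 24 h was compared with sham over both arms (6 libraries a side, with the arm as a term). limma on log2(FPKM + 1), where 3 or more of the compared libraries had to reach 1 FPKM, tested 33 of the 44 channel genes and adjusted p over all 14589 genes tested. At adjusted p below 0.05, Cacng5 and Cacnb2 rose and Cacnb1, Cacnb3, Cacna1g and Hcn2 fell. That is 2 of 33 higher, where 19.3% of all genes tested were called higher, and 4 of 33 lower, where 5.38% were called lower. The median log2 difference of the 33 channel genes was -0.16, against 0.10 over all genes, and 24 of the 33 were below 0. Hcn4 entered the test only through its high 24 h libraries. In bulk tissue, fewer neurons and less RNA per neuron cannot be told apart. Of the 11 pan-neuronal markers Tubb3 and Map2 fell and Nefm rose, and of 8 excitatory markers none passed. Endothelial (4 of 5), mural (4 of 4 tested) and meningeal (4 of 5) markers rose, and their part in the channel gene values was not tested. The plot of the 24 h differences gives 31 of the 33.

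**Figure D1:**
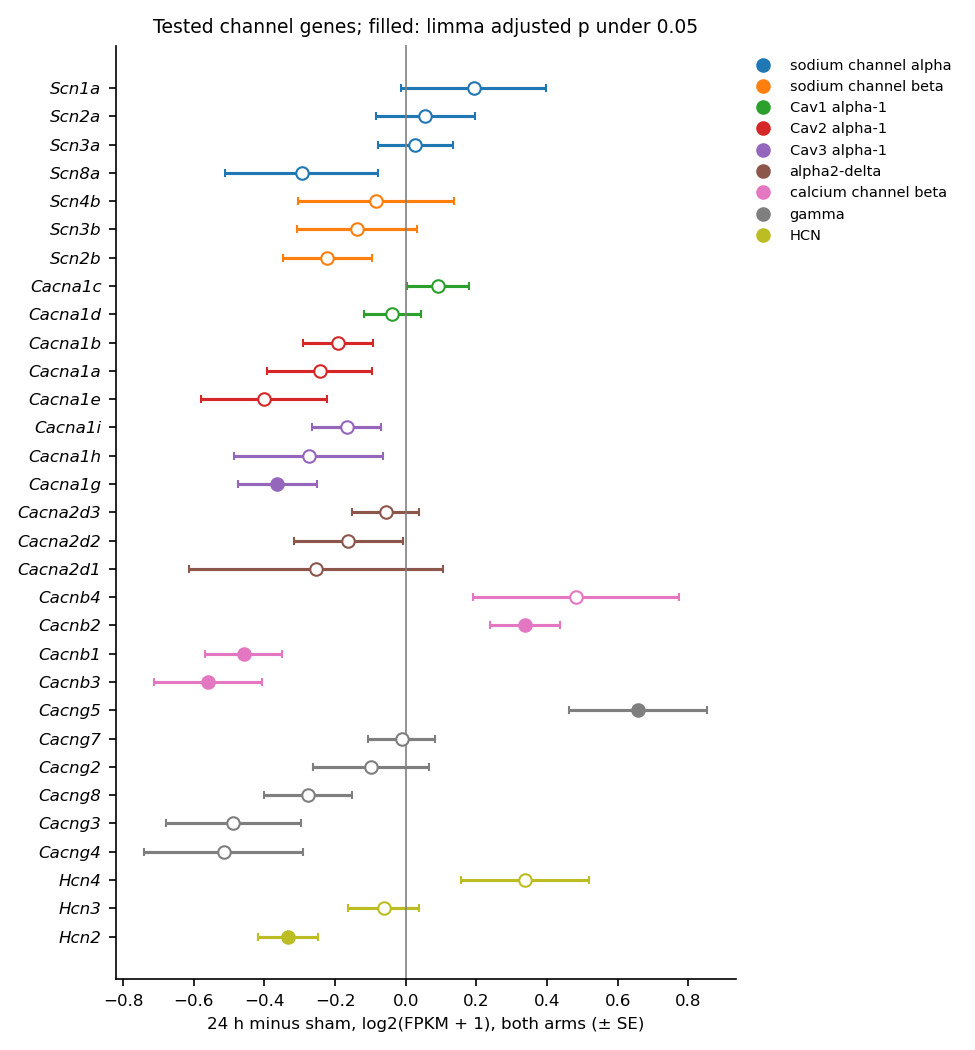
Log2 difference between 24 h after tMCAO and sham over both arms (x axis, log2(FPKM + 1), points with SE bars) for channel genes tested (y axis; 31 of the 33), coloured by family, with filled points for limma adjusted p below 0.05. The 6 filled points are Cacng5 and Cacnb2 to the right of 0 and Cacna1g, Cacnb1, Cacnb3 and Hcn2 to the left.

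The calcium channel beta subunits, cytosolic proteins that carry the pore to the membrane and modulate its gating, moved in both directions at 24 h. Cacnb1 was at 34.1, 35.2 and 29.8 FPKM in the Sham_C libraries and at 30.4, 30.3 and 33.7 FPKM in the Sham_T libraries, and at 20.1, 27.3 and 18.3 FPKM in the R24h_C libraries and at 27.4, 21.3 and 26.0 FPKM in the R24h_T libraries. Every 24 h library lay below every sham library (log2 difference -0.46, SE 0.11, limma adjusted p = 0.0118). Cacnb3, the most abundant of the family, was at 86.6, 84.3 and 77.8 FPKM in the Sham_C libraries and at 70.0, 80.0 and 75.3 FPKM in the Sham_T libraries, and at 46.9, 58.2 and 35.8 FPKM in the R24h_C libraries and at 64.3, 46.9 and 76.3 FPKM in the R24h_T libraries. It fell (log2 difference -0.56, SE 0.15, limma adjusted p = 0.0214), with all R24h_C libraries below all sham libraries, while R24h_T3 lay within the sham range. Cacnb2 was at 3.46, 3.51 and 3.60 FPKM in the Sham_C libraries and at 2.99, 2.70 and 3.16 FPKM in the Sham_T libraries, and at 4.59, 4.67 and 4.30 FPKM in the R24h_C libraries and at 5.81, 3.66 and 3.37 FPKM in the R24h_T libraries. It rose (log2 difference 0.34, SE 0.10, limma adjusted p = 0.0288), although R24h_T3 at 3.37 FPKM lay below 3 of the sham libraries. As a share of the family's summed FPKM, Cacnb2 went from 2.64% ± 0.184 in Sham_C to 5.21% ± 0.869 in R24h_C (SD, n = 3) and Cacnb3 from 62.1% ± 2.79 to 52.7% ± 1.93, while the sum went from 134 ± 7.39 to 88.8 ± 18.5 FPKM. The Tiparp arm moved less. From Sham_T to R24h_T, Cacnb2 went from 2.39% ± 0.340 to 3.76% ± 1.05 and Cacnb3 from 60.6% ± 3.22 to 54.1% ± 5.75. The sum there went from 124 ± 12.6 to 115 ± 16.6 FPKM. Antisense gene models overlap exons of Cacnb1, Cacnb2 and Cacnb4 on the opposite strand. The library preparation was stranded, but whether strand was used in counting is not given in the sources used here, so reads of these partners may be included.

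**Figure D2:**
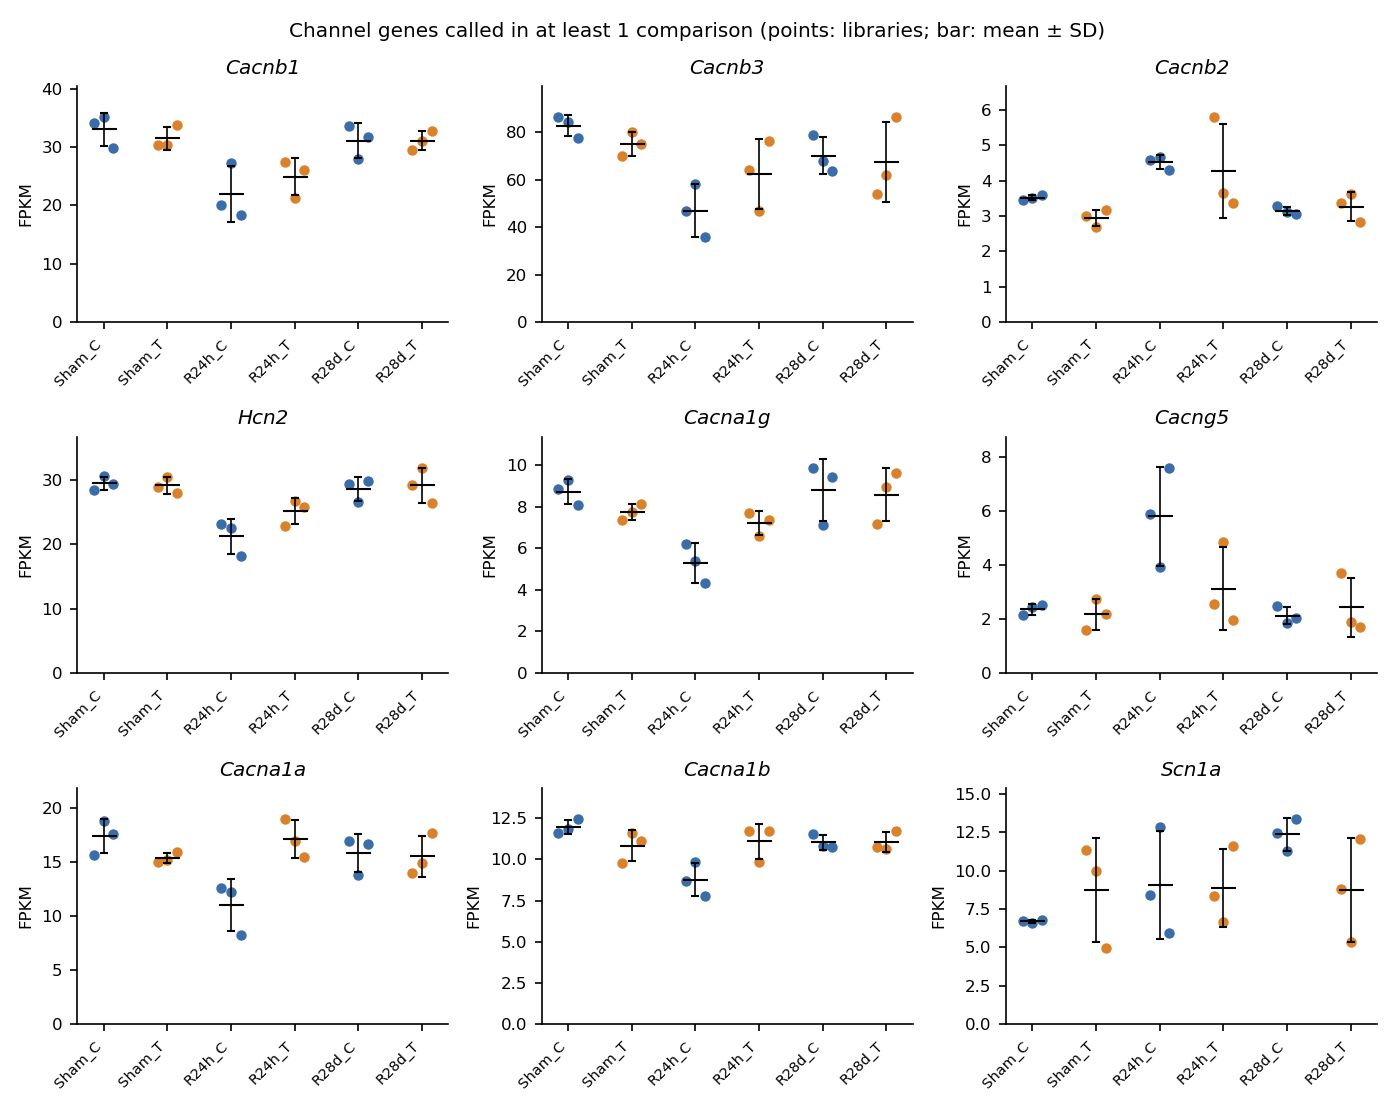
FPKM (y axis, from 0) in each library (points; blue control arm, orange Tiparp arm) of the 6 groups (x axis) for the 9 channel genes called in at least 1 comparison, with the mean and SD of 3 libraries as bars. Cacnb1 and Hcn2 are lower in all 6 libraries at 24 h than in any sham library, and at 28 d all 6 libraries of Cacnb1 are above its highest 24 h library.

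Cacnb4, the beta subunit mutated in the lethargic mouse, had a high and a low state. The low state was seen in 1 library of each sham and each 28 d group and in no 24 h library. It was at 17.8, 6.12 and 18.2 FPKM in the Sham_C libraries and at 6.41, 19.0 and 19.1 FPKM in the Sham_T libraries, and at 15.9, 17.6 and 12.5 FPKM in the R24h_C libraries and at 24.2, 23.6 and 20.6 FPKM in the R24h_T libraries. The R28d_C libraries held 6.19, 17.1 and 20.5 FPKM and the R28d_T libraries 6.30, 14.2 and 17.2 FPKM. Sham_C2, Sham_T1, R28d_C1 and R28d_T1 lay at or below 6.41 FPKM and the other 14 libraries at or above 12.5 FPKM. Its 24 h difference did not pass (log2 difference 0.48, SE 0.29, limma adjusted p = 0.241). Cacna2d1 also showed such a gap of at least 1.5 times with at least 3 libraries on each side. These were 2 of 32 channel genes with at least 1 FPKM in every library (6.25%), and 297 of 11556 genes overall (2.57%).

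Among the TARP genes and their relatives 1 of 6 tested passed. Cacng5, whose product is a TARP of the type II group with a weaker effect on AMPA receptor trafficking, was at 2.14, 2.45 and 2.51 FPKM in the Sham_C libraries and at 1.60, 2.73 and 2.19 FPKM in the Sham_T libraries, and at 5.89, 3.93 and 7.61 FPKM in the R24h_C libraries and at 2.57, 4.86 and 1.96 FPKM in the R24h_T libraries. It rose (log2 difference 0.66, SE 0.20, limma adjusted p = 0.0302), most in R24h_C3 and R24h_C1, while R24h_T1 and R24h_T3 lay within the sham range. Cacng3, a TARP of cortical excitatory neurons, was at 45.6, 50.3 and 43.2 FPKM in the Sham_C libraries and at 33.1, 45.1 and 52.9 FPKM in the Sham_T libraries, and at 28.9, 40.1 and 17.1 FPKM in the R24h_C libraries and at 34.7, 33.3 and 42.4 FPKM in the R24h_T libraries. The groups overlapped and the difference did not pass (log2 difference -0.49, SE 0.19, limma adjusted p = 0.0797). Cacng4 likewise did not pass (-0.52, limma adjusted p = 0.11). Cacng7, the most abundant of the family, was at 97.7, 105 and 99.6 FPKM in the Sham_C libraries and at 95.2, 103 and 107 FPKM in the Sham_T libraries, and at 104, 92.7 and 75.3 FPKM in the R24h_C libraries and at 104, 116 and 117 FPKM in the R24h_T libraries. Its 24 h libraries reached beyond the sham range on both sides, with R24h_C3 lowest. Of the 6 genes of the family tested, 5 were below 0 and the median log2 difference was -0.19. Cacng3, Cacng4 and Cacnb4 were chosen for naming after their values were seen.

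Among pore-forming calcium channel genes, the T-type gene Cacna1g, whose channel opens near rest and supports burst firing, was at 8.85, 9.26 and 8.07 FPKM in the Sham_C libraries and at 7.37, 7.73 and 8.12 FPKM in the Sham_T libraries, and at 6.22, 5.37 and 4.31 FPKM in the R24h_C libraries and at 7.70, 6.59 and 7.35 FPKM in the R24h_T libraries. It fell (log2 difference -0.36, SE 0.11, limma adjusted p = 0.0345). All R24h_C libraries lay below all sham libraries, as did R24h_T2 and, narrowly, R24h_T3, while R24h_T1 lay within the sham range. The 3 T-type genes and the 3 genes of the P/Q-, N- and R-type channels of nerve terminals (Cacna1a, Cacna1b, Cacna1e) all had log2 differences below 0, between -0.40 and -0.17, of which only Cacna1g passed. The L-type genes Cacna1c and Cacna1d did not pass, at 0.09 and -0.04. Cacna1d, the higher of the L-type pair, was at 5.66, 5.94 and 5.21 FPKM in the Sham_C libraries and at 5.43, 5.39 and 6.17 FPKM in the Sham_T libraries, and at 5.61, 5.20 and 4.96 FPKM in the R24h_C libraries and at 6.85, 5.49 and 4.80 FPKM in the R24h_T libraries, with overlapping groups. Exons of Cacna1d overlap Chdh on the opposite strand.

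Alpha2-delta subunits raise calcium channel density at nerve terminals, and some of them bind gabapentin. None of the 3 genes tested passed (log2 differences -0.25 to -0.06). Cacna2d1 was at 13.3, 3.75 and 12.3 FPKM in the Sham_C libraries and at 13.2, 13.2 and 4.34 FPKM in the Sham_T libraries, and at 9.65, 5.18 and 3.28 FPKM in the R24h_C libraries and at 13.0, 11.3 and 5.98 FPKM in the R24h_T libraries. The R28d_C libraries held 14.0, 10.6 and 5.60 FPKM and the R28d_T libraries 4.09, 4.57 and 4.48 FPKM. Its values formed 9 libraries at or below 5.98 FPKM and 9 at or above 9.65 FPKM, with both kinds within every group except R28d_T, whose 3 libraries were all low. The plot of the genes with a wide spread shows both levels.

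**Figure D3:**
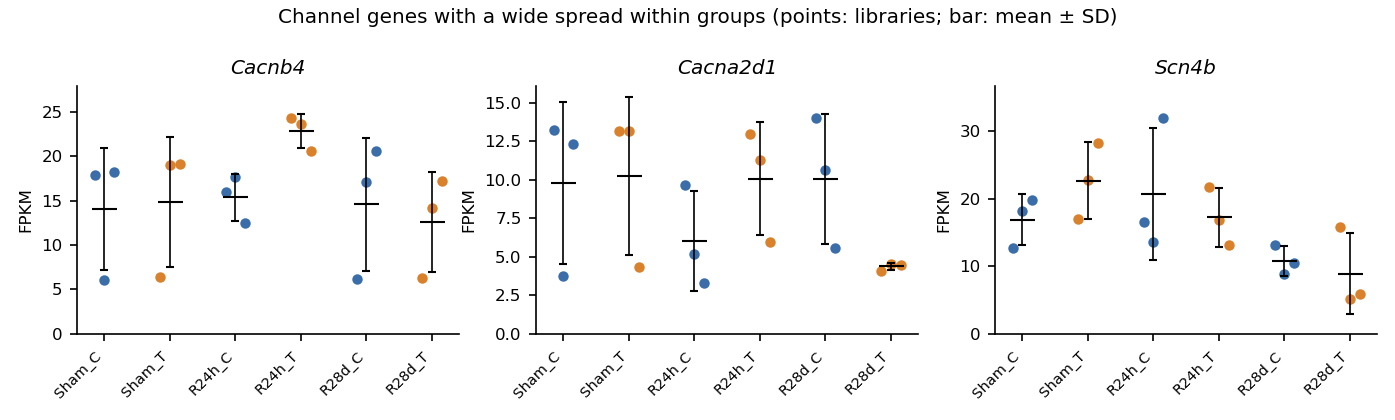
FPKM (y axis, from 0) of Cacnb4, Cacna2d1 and Scn4b in each library (points; blue control arm, orange Tiparp arm) of the 6 groups (x axis), with mean and SD of 3 libraries as bars. Cacnb4 and Cacna2d1 fall into a high and a low set of libraries within single groups, and Scn4b is highest in R24h_C3 and Sham_T3.

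Of the HCN genes, Hcn2 was at 28.5, 30.6 and 29.4 FPKM in the Sham_C libraries and at 29.0, 30.5 and 28.0 FPKM in the Sham_T libraries, and at 23.1, 22.5 and 18.2 FPKM in the R24h_C libraries and at 22.9, 26.8 and 25.9 FPKM in the R24h_T libraries. It fell (log2 difference -0.33, SE 0.08, limma adjusted p = 0.0155), and every 24 h library lay below every sham library. The share of Hcn2 in the family's summed FPKM was 80.8% ± 0.477 in Sham_C and 80.1% ± 2.06 in Sham_T, 71.5% ± 2.57 in R24h_C and 74.9% ± 2.47 in R24h_T, and 79.5% ± 1.43 in R28d_C and 79.8% ± 1.88 in R28d_T (SD, n = 3). Hcn2 shares were lower in all 24 h means than in the sham means of the same arm, and are a description without a test.

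**Figure D4:**
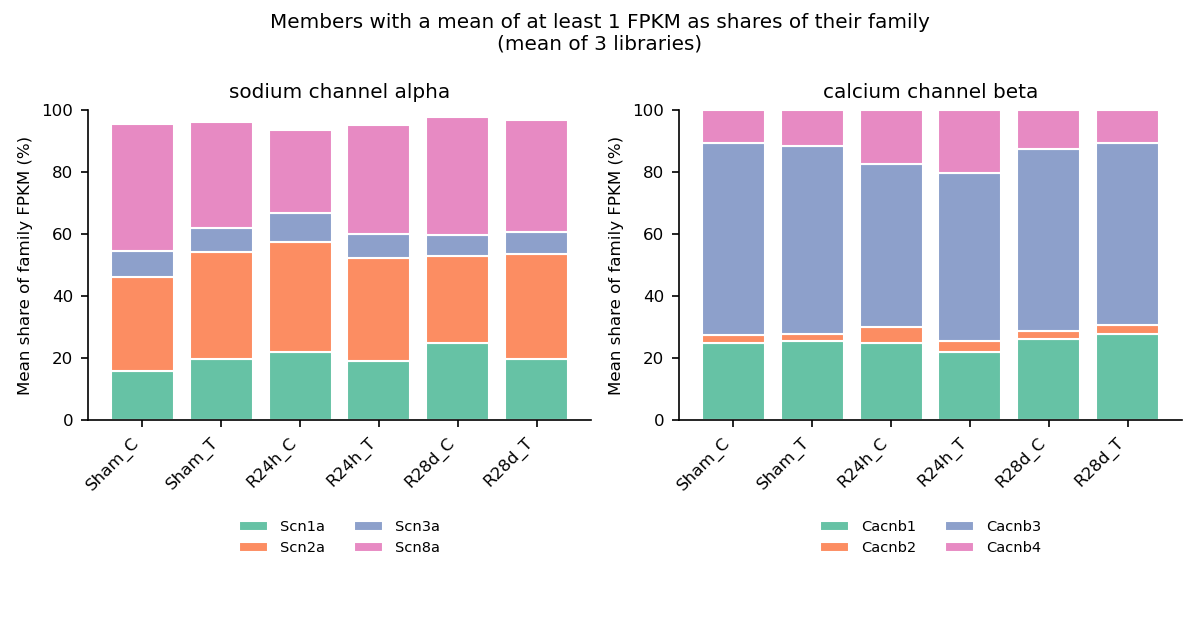
Mean share (y axis, %, 3 libraries per bar) of each member with a mean of at least 1 FPKM in the summed FPKM of its family, for the 6 groups (x axis), in the sodium channel alpha and calcium channel beta families. Members below 1 FPKM make up the rest to 100. In the calcium channel beta panel the Cacnb3 part is smaller and the Cacnb2 and Cacnb4 parts are larger in R24h_C and R24h_T than in the sham groups. The sham means of Cacnb4 include its low libraries Sham_C2 (4.74%) and Sham_T1 (5.84%).

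No sodium channel gene passed at 24 h over both arms. Scn8a, the main alpha subunit of mature axon initial segments and nodes, was at 20.7, 14.6 and 17.6 FPKM in the Sham_C libraries and at 18.8, 13.2 and 13.0 FPKM in the Sham_T libraries, and at 9.98, 17.0 and 6.55 FPKM in the R24h_C libraries and at 18.8, 15.2 and 14.2 FPKM in the R24h_T libraries. Only R24h_C1 and R24h_C3 lay below all sham libraries (log2 difference -0.29, SE 0.22, limma adjusted p = 0.336). Medians were 0.04 over the 4 alpha genes tested and -0.18 over the 4 beta genes.

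Cacnb1 passed in each of the 18 alternative analyses of the 24 h comparison and Hcn2 in 17, while Cacnb3 passed in 12, Cacng5 and Cacnb2 in 9 each and Cacna1g in 7. In the alternatives that ended a call, limma adjusted p was between 0.0502 and 0.0705 for Cacnb3, between 0.0524 and 0.150 for Cacnb2, between 0.0562 and 0.0986 for Cacng5 and between 0.0522 and 0.0835 for Cacna1g. The libraries whose removal ended a call were Sham_C1, Sham_C2, R24h_C1 and R24h_T2 for Cacnb3, Sham_C1 to Sham_C3, Sham_T1, Sham_T2 and R24h_C1 for Cacnb2, Sham_C1 to Sham_C3, Sham_T1, R24h_C1, R24h_C3 and R24h_T2 for Cacng5, and Sham_C1 to Sham_C3, Sham_T3, R24h_C1 to R24h_C3 and R24h_T2 for Cacna1g. Without R24h_T3, 2 channel genes were higher and 6 lower. Scaling by median ratios moved the median of all genes from 0.10 to -0.01 and the share of calls that were higher from 78.2% to 54.2%, with 1 channel gene higher and 4 lower. This scaling ended the Cacnb2 call, so the rise of Cacnb2 depended on the normalization. Testing with no filter ended the calls of Cacnb3, Cacna1g, Cacng5 and Cacnb2, and the replicate block ended that of Cacna1g. Relative to the median of all genes, the differences were -0.56 for Cacnb1, -0.66 for Cacnb3, -0.43 for Hcn2, -0.46 for Cacna1g, 0.24 for Cacnb2 and 0.56 for Cacng5. Without R24h_C3, Sham_T1 and Sham_T2, the compared libraries with over 100 FPKM of Ttr, Sham_T3 was the 1 library left in Sham_T. In that fit the log2 differences were -0.46 for Cacnb1 and -0.47 for Cacng3. The calls of Cacnb3, Hcn2, Cacna1g, Cacng5 and Cacnb2 ended there, and for Hcn2 it was the only alternative that ended the call. The lone Sham_T library is assumed to vary like the other groups.

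Genes whose products bind or regulate these channels were read from a list of 43 genes, of which 42 were measured and 38 tested at 24 h over both arms. Of these 1 rose, where 19.3% of all genes were called higher, and 7 fell, where 5.38% were called lower. Their median log2 difference was -0.19, against 0.10 over all genes. Pex5l, which encodes the HCN trafficking subunit TRIP8b, rose (limma log2 difference 0.57, adjusted p = 0.00698), the opposite direction to Hcn2. Fgf13, an intracellular sodium channel partner, fell, and its control arm means were 26.8 ± 1.36 FPKM in sham and 13.9 ± 4.73 FPKM at 24 h (SD, n = 3; over both arms limma -0.68, adjusted p = 0.0219). Cbarp, which binds calcium channel beta subunits and restrains calcium channel activity, fell as well (limma -0.68, adjusted p = 0.0205). The AMPA receptor auxiliary genes Cnih2 (limma -0.57, adjusted p = 0.0121) and Gsg1l (-0.48, adjusted p = 0.0345) and the TARP-binding scaffold Dlg4 (-0.55, adjusted p = 0.0273) also fell, as did Trim46, an organizer of the axon initial segment (-0.34, adjusted p = 0.0223). The AMPA receptor auxiliary list had 4 of 7 lower, the initial segment and sodium channel list 2 of 13 lower, the calcium channel list 1 of 13 tested lower and the sodium leak channel list 0 of 4.

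Within the control arm alone, 24 h against sham, 2 of 32 channel genes tested rose (19.8% of all genes called higher) and 6 fell (4.24% called lower). These libraries are among those of the comparison above, so the values are not independent of it. Cacng5 (2.36 ± 0.199 to 5.81 ± 1.84 FPKM, SD, n = 3; log2 difference 0.98, SE 0.20, limma adjusted p = 0.0194) and Cacnb2 (0.29, limma adjusted p = 0.0415) rose. The Cacnb3 mean fell from 82.9 ± 4.60 to 47.0 ± 11.2 FPKM (log2 difference -0.83, SE 0.18, limma adjusted p = 0.0215), and Cacna1g (-0.64), Cacnb1 (-0.59) and Hcn2 (-0.46) fell with limma adjusted p between 0.02 and 0.0407. The P/Q-type gene Cacna1a and the N-type gene Cacna1b, which supply calcium for transmitter release, passed in this comparison but not over both arms. Cacna1a was at 15.7, 18.8 and 17.6 FPKM in Sham_C and 12.6, 12.3 and 8.26 FPKM in R24h_C (log2 difference -0.63, SE 0.17, limma adjusted p = 0.0379). Cacna1b was at 11.6, 11.9 and 12.5 FPKM in Sham_C and 8.67, 9.83 and 7.81 FPKM in R24h_C (log2 difference -0.42, SE 0.10, limma adjusted p = 0.0317). Neither gene's groups overlapped.

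Groups in this arm did not overlap for 11 channel genes that were lower (11.8% of all genes) and 2 that were higher (36.1%), the lower ones including Cacna1a, Cacna1b, Cacna1e, Cacna1g, Cacna1i, Cacnb1, Cacnb3, Cacng2, Cacng3 and Hcn2. R24h_C3 was the lowest R24h_C library for each of the 6 genes that fell. The pan-neuronal markers Map2 and Tubb3 (2 of 11) and the excitatory marker Camk2a (1 of 8) fell in the same libraries, and 12 of 37 channel partners fell, where 4.24% of all genes were called lower. No channel gene was called without Sham_C1, Sham_C2, Sham_C3 or R24h_C1, and 12 were called without R24h_C2 and 7 without R24h_C3. Median-ratio scaling moved the median of all genes from 0.13 to -0.01 and the share of calls that were higher from 82.4% to 58.6%, with 1 channel gene higher and 7 lower. Here too it ended the Cacnb2 call.

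In the Tiparp arm at 24 h against sham, limma called 0 of 32 channel genes (0.222% of all genes called), with 2 at an unadjusted p below 0.05 (Cacnb1 among them; 14.3% of all genes). Cacnb1 differed by -0.33 (limma adjusted p = 0.335). Groups did not overlap for 3 genes higher (Cacnb2 and Cacnb4 among them; 13.9% of all genes) and 3 lower (Cacnb1, Cacng4, Hcn2; 8.28%).

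Whether the 24 h response differed between the arms was tested by the interaction of arm and condition. limma called 0 of 33 channel genes and 0% of all genes, and 4 channel genes had an unadjusted p below 0.05 (10.9% of all genes did). These were Cacna1a (Tiparp arm response minus control arm response 0.77, SE 0.21), Cacna1g (0.54, SE 0.17), Cacna1b (0.45, SE 0.16) and Cacna1i (0.42, SE 0.16), each with limma adjusted p = 0.415. Cacna1a was at 15.0, 15.1 and 15.9 FPKM in Sham_T and 19.0, 16.9 and 15.5 FPKM in R24h_T, which overlapped. Between the arms at 24 h, 0 of 33 genes were called (0% of all genes), and 6 had an unadjusted p below 0.05 (7.22% of all genes did): Cacna1a, Cacna1g, Cacna1i, Cacnb4 and Cacng2 higher and Cacng5 lower in R24h_T, all with limma adjusted p = 0.668. The arms did not overlap at 24 h for 6 genes higher in R24h_T (Cacna1a, Cacna1b, Cacna1g, Cacna1i, Cacnb4 and Cacng2; 3.23% of all genes) and for 1 lower (Hcn3; 8.78%). R24h_C3 and R24h_T3, the libraries that stood apart, are in both tests. In sham 0 of 32 were called (0.21% of all genes; 3 at an unadjusted p below 0.05, 12.8% of all genes), and at 28 d 0 of 32 (0% of all genes; 1 at an unadjusted p below 0.05, 2.52% of all genes). The interaction at 28 d gave 0 of 32 (0.00702%; 2 at an unadjusted p below 0.05, 4.84% of all genes).

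**Figure D5:**
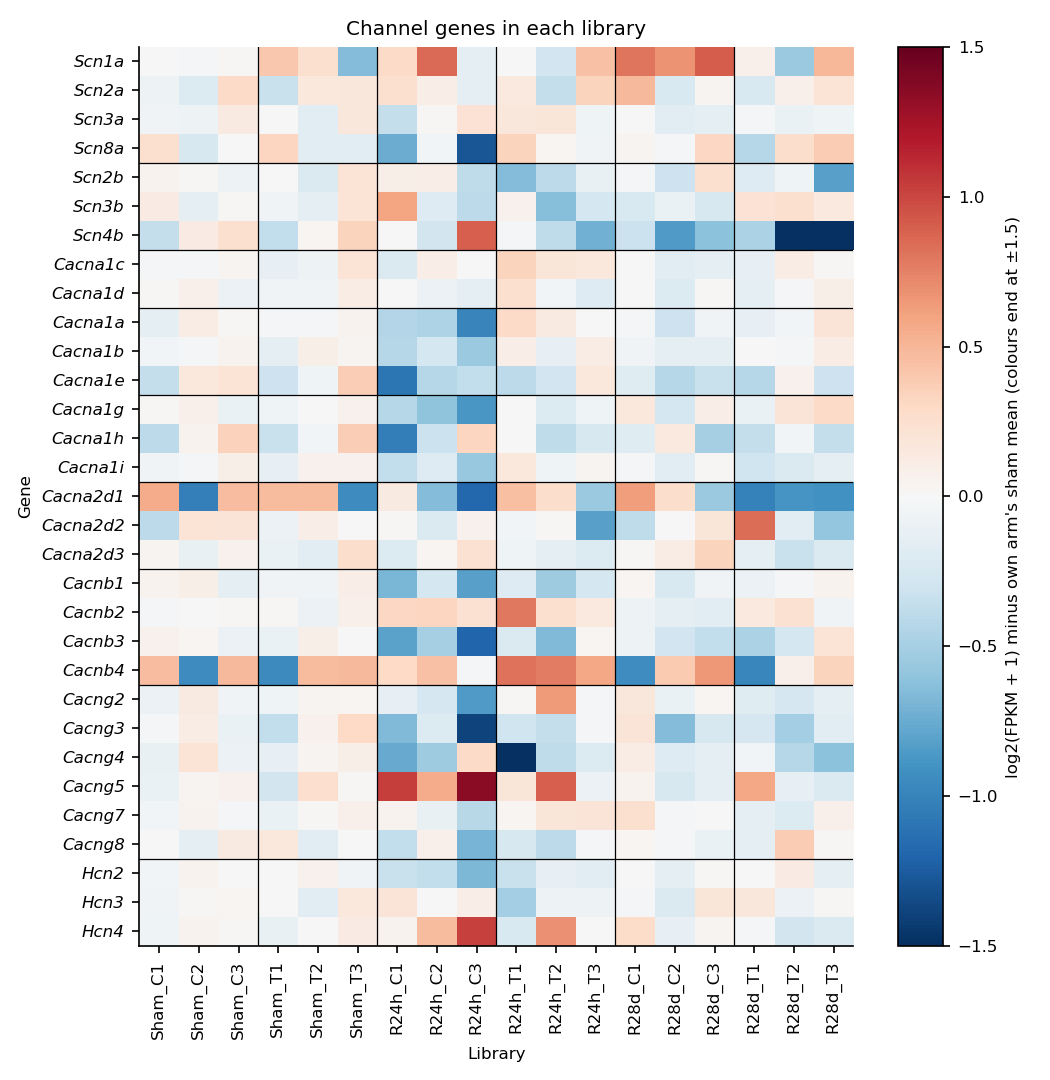
Difference of log2(FPKM + 1) in each library (x axis) from the mean of the sham libraries of its own arm, for 31 of the 33 channel genes tested at 24 h (y axis, in families separated by lines), with colours that end at ±1.5. Columns of R24h_C, above all R24h_C3, are blue for most calcium channel genes, the row of Cacng5 is red in the R24h_C libraries and in R24h_T2, and the rows of Cacnb4 and Cacna2d1 switch between libraries of 1 group.

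At 28 d against sham over both arms limma called 0 of 32 channel genes, and 0.00702% of all 14242 genes. At an unadjusted p below 0.05 there were 3, all lower (Scn4b and Cacna1i among them; 17.3% of all genes passed this). The genes called at 24 h had log2 differences from sham at 28 d of -0.05 (Cacnb1), -0.21 (Cacnb3), -0.02 (Hcn2), 0.06 (Cacna1g), -0.01 (Cacnb2) and -0.01 (Cacng5). Cacnb1 was at 33.7, 27.9 and 31.7 FPKM in R28d_C and 29.4, 31.0 and 32.7 FPKM in R28d_T, all above its highest 24 h library. Hcn2 was at 29.3, 26.6 and 29.9 FPKM in R28d_C and 29.2, 31.9 and 26.4 FPKM in R28d_T, where R28d_C2 and R28d_T3 lay within the 24 h range.

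Set directly against 24 h, 28 d over both arms gave 0 of 33 channel genes called by limma (2.98% of all genes), and 7 at an unadjusted p below 0.05 (25.7% of all genes). Cacnb1 was 0.41 higher at 28 d (limma adjusted p = 0.0621), Cacna1g 0.43 (adjusted p = 0.0721) and Hcn2 0.31 (adjusted p = 0.0745). Values for Cacnb2, Cacng5 and Scn4b were -0.35, -0.67 and -0.91 (limma adjusted p = 0.0811, 0.103 and 0.0747). All 6 passed without R24h_T3, and all 6 with the spread estimated from all 18 libraries; without R28d_T1 3 passed (Cacna1g, Cacng5 and Scn4b). The 24 h libraries are shared with the comparison to sham.

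Scn1a, the sodium channel alpha gene that carries much of the current of fast-spiking interneurons, was the 1 channel gene called at 28 d within an arm. It rose in the control arm (log2 difference 0.79, SE 0.07, limma adjusted p = 0.0365), where 1 of 32 channel genes was called higher (0.0224% of all genes) and 0 lower (0.0298%). It was at 6.69, 6.58 and 6.80 FPKM in Sham_C, at 8.41, 12.8 and 5.93 FPKM in R24h_C and at 12.4, 11.3 and 13.4 FPKM in R28d_C. The R28d_C libraries lay above all Sham_C libraries, and R24h_C spanned both groups. In this arm the groups did not overlap for 1 channel gene higher (12.6% of all genes) and 3 lower (Cacna1b and Cacnb2 among them; 6.08%). In the Tiparp arm it was at 11.4, 9.99 and 4.93, at 8.37, 6.64 and 11.6 and at 8.83, 5.33 and 12.1 FPKM in Sham_T, R24h_T and R28d_T, so the sham libraries of that arm alone ranged more widely than the 3 Sham_C libraries. There the 28 d difference was 0.01 (limma adjusted p = 0.997), with 0 of 32 channel genes called (0.0148% of all genes; 3 at an unadjusted p below 0.05, 10.5%), and the difference between the arms' responses did not pass (log2 difference -0.79, SE 0.40, limma adjusted p = 0.956). Without the libraries with over 100 FPKM of Ttr, which left Sham_T3 as the 1 sham library of the Tiparp arm, the 28 d difference there was 0.94 (limma adjusted p = 1) and the difference between the arms' responses 0.14. That lone library is assumed to vary like the other groups. For the control arm call of Scn1a, limma adjusted p in the alternatives lay between 0.0300 and 1. Among the settings that ended the call were the spread estimated from all 18 libraries, no filter, and leaving out Sham_C1, Sham_C2, Sham_C3 or R28d_C3.

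Scn4b encodes the beta subunit of resurgent sodium current and is prominent in striatal neurons. It had the lowest unadjusted p of the channel genes at 28 d against sham over both arms (log2 difference -0.99, SE 0.26, limma adjusted p = 0.129). It was at 12.7, 18.2 and 19.8 FPKM in the Sham_C libraries and at 16.9, 22.7 and 28.3 FPKM in the Sham_T libraries, at 16.6, 13.6 and 31.8 FPKM in the R24h_C libraries and at 21.8, 16.8 and 13.1 FPKM in the R24h_T libraries, and at 13.1, 8.78 and 10.5 FPKM in R28d_C and 15.7, 5.12 and 5.85 FPKM in R28d_T. Its highest values were in R24h_C3 and Sham_T3, which also had the highest striatal marker sums (400.2 and 333 FPKM), and its lowest in R28d_T2 and R28d_T3, which had the lowest of these sums (42.2 and 76.1 FPKM). What striatal tissue in the dissection contributed to Scn4b was not tested. By arm the difference was -0.59 in the control arm (limma adjusted p = 0.368) and -1.38 in the Tiparp arm (adjusted p = 0.387), and over both arms it passed only without R28d_C1 (limma adjusted p = 0.0488) of the 18 alternatives. Scn4b was named after its values were seen.

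Among the 12 channel genes below a mean of 1 FPKM, 3 were above 1 FPKM in at least 1 library, Scn10a and Hcn4 among them. Scn10a, a sodium channel of nociceptors, was at 0.580, 0.569 and 0.643 FPKM in Sham_C and 0.0696, 0.111 and 0.147 FPKM in Sham_T, and reached 2.18 FPKM in R24h_T1 and 1.29 FPKM in R24h_C2. Hcn4 reached 2.35, 1.91 and 1.28 FPKM in R24h_C3, R24h_T2 and R24h_C2, and its 24 h difference over both arms did not pass (limma adjusted p = 0.187). The remaining 9 were below 1 FPKM in every library, and at these levels no difference could be read.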

How the data were processed

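RNA was extracted with TRIzol, poly(A)-selected and made into stranded (dUTP) paired-end libraries, per the labels' protocols. The authors deposited FPKM per gene, not counts, and the submitters' processing notes name HISAT, StringTie, edgeR and build mm9, with no versions. The channel genes and gene lists were chosen with earlier results of these data known.

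FPKM values were tested as log2(FPKM + 1) with limma 3.58.1 (R 4.3.3, trended variance, two-sided), for genes that reached 1 FPKM in 3 or more of the compared libraries, with Benjamini-Hochberg adjustment over all genes tested in each of 12 comparisons. A fold on this scale understates the change of low genes. Fits over both arms had the arm as a term. The fits were also run on simulated data with known changes and independent noise, without libraries that stand apart. The outcome is not given here. Tables and permutation tests used Python 3.11.15, pandas 2.3.3, numpy 2.4.6, scipy 1.17.1 and matplotlib 3.10.9.

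Some channel genes are not reported here by name. Values in every library are given for the other genes called in a comparison or highest in their family, and up to 6 partner genes in each direction are named by size of change. Alternatives were a pseudocount of 0.1 FPKM, no filter, median-ratio scaling, a replicate block, all 18 libraries in 1 fit, and leaving out each library. Leaving out those of the 4 libraries with over 100 FPKM of Ttr that a comparison held was added after the data were seen. Gene names and exon overlaps came from GENCODE M21 (44 of 44 channel genes matched), and no coordinates were converted between builds.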

Additional observations from a re-analysis of the deposited data

How the results depend on the processing

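The count of channel genes called at 24 h over both arms was 2 with no filter, 2 without the libraries with over 100 FPKM of Ttr and 2 to 8 when 1 library was left out. In the control arm at 24 h it was 1 with no filter, 5 with the replicate block (which ended the calls of Cacna1a, Cacna1b, Cacnb2 and Hcn2) and 0 to 12 with 1 library left out, and in the Tiparp arm 0 to 1. At 28 d in the control arm the 1 call became 0 with no filter, with the replicate block and with all 18 libraries in 1 fit, and 0 to 1 with 1 library left out. Over both arms at 28 d the count was 0 to 1 with 1 library left out. From 24 h to 28 d it was 6 with all 18 libraries in 1 fit and 0 to 6 with 1 library left out. Same-numbered libraries did not deviate together (correlations from -0.44 to 0.21), so the block rests on numbers alone. The Tiparp differences ranged from -0.014 to 0.122 in sham, from -0.80 to -0.41 at 24 h and from -0.056 to 0.071 at 28 d with 1 library left out, with 0.025 without R28d_T3. Scn1a at 28 d in the Tiparp arm turned to -0.036 with scaling and ranged from -0.32 to 0.29 with 1 library left out (-0.03 without R28d_T1, -0.24 without R28d_T3), and without the Ttr libraries it was 0.94 and the difference between the arms' responses turned to 0.14. The cause was not tested. No called gene reversed at 24 h. With no read totals, counting error limits the low genes to an unknown degree.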
